A study of Mus musculus with 16 samples.

Results

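The genes described here are 38 genes of mitosis and the kinetochore: cyclins and their kinase, other mitotic kinases, the spindle checkpoint and its anaphase effectors, the centromere and kinetochore, spindle motors, the midzone and cytokinesis machinery, and the chromosome proteins Mki67 and Top2a. They were chosen as a named list with earlier results of these data known. A gene with several probes was read from its brightest one on average. Of the 38 genes, 37 were measured among 20863 genes in all, and Ccnb1, the gene of cyclin B1, was not analysed here. The levels came from whole lungs of C57BL/6 mice aged 9 to 12 weeks, measured on 16 one-colour Agilent arrays. A locked nucleic acid oligonucleotide (LNA) was put into the trachea of all mice, 4 days and 2 days ahead of the second agent and again 4 days after it, each time at 5 mg/kg. It was either LNA-control or LNA-miR-199a-5p, an inhibitor of the microRNA of that name, and the second agent was bleomycin at 1 unit/kg or its vehicle PBS. Bleomycin breaks DNA and injures the lung, and the series asks how silencing miR-199a-5p affects the fibrosis that follows. There were 3 arrays of PBS + LNA-control, 3 of PBS + LNA-miR-199a-5p, 5 of bleomycin + LNA-control and 5 of bleomycin + LNA-miR-199a-5p. No group was left without an oligonucleotide, the labels do not give the day of collection, and they number the replicates without saying that each is a separate animal, so p-values measure the spread between these samples, part of which may be technical.

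In a dividing cell, cyclin A and cyclin B bind Cdk1 and drive entry into mitosis. Chromosomes then attach to spindle microtubules through kinetochores, and the spindle checkpoint holds back the anaphase-promoting complex until every chromosome is attached. The complex, activated by Cdc20, releases separase, which cuts the cohesion between sister chromatids, and the midzone then organises the division of the cytoplasm. Messenger RNAs of these genes rise together late in the cell cycle and are low in resting cells, so in tissue they are widely read as markers of cycling cells. Uninjured adult lung divides slowly. Values below are deposited log2 intensities, in which a difference of 1 is a doubling, and differences are given with the standard error from limma. A gene is called higher or lower where its Benjamini-Hochberg adjusted p over all 20863 genes was under 0.05. Intensities depend on each probe, so levels are compared between arrays and not between genes.

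The microRNA that the oligonucleotide targets is shown because it names the treatment. Its 23 bases are written with the seed, bases 2 to 8, in capitals. RefSeq places the same mature sequence, on build GRCm38.p6, at Mir199a-2 (chr1:162217844-162217866, plus strand) and Mir199a-1 (chr9:21496537-21496559, minus strand).
mmu-miR-199a-5p: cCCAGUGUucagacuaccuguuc

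Promoters of genes that peak in mitosis often hold 2 short elements: the cell cycle genes homology region (CHR), with the core TTTGAA or, in a second form, TTTAAA, which is read by the DREAM and MuvB complexes, and the CCAAT box, which is bound by NF-Y. These letters were searched on both strands in the RefSeq windows from 250 bases before to 50 after each start. Windows were found for 31 of the 38 genes, 33 windows in all. TTTGAA stood in 75.8% of these windows, against 17.9% of the 32851 windows of all genes. CCAAT also stood in 75.8% of them, against 37.4% of all windows, and TTTAAA in 27.3%, against 13.2%. TTTGAA occurred together with the letters CCAAT in 66.7% of the mitosis gene windows and in 6.95% of all windows. The position differed as well: 24 of 32 TTTGAA matches in the mitosis genes began within 50 bases of the start (75.0%), against 25.3% of the matches in all windows. None of these letters was in the windows of Melk, Nuf2, Nusap1 and Mad2l1.

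The 100 bases before the start are shown for 5 genes that the results turn on and that hold these elements, and for 2 that hold none of them. All are from RefSeq on build GRCm38.p6, written 5′ to 3′ along the gene, with TTTGAA and CCAAT, or their reverse complements, in capitals. Spc25 lies at chr2:69206214-69206313 (minus strand), Cdc20 at chr4:118437344-118437443 (minus), Prc1 at chr7:80294376-80294475 (plus), Cdk1 at chr10:69352913-69353012 (minus), Espl1 at chr15:102296193-102296292 (plus), Melk at chr4:44300817-44300916 (plus) and Nusap1 at chr2:119618198-119618297 (plus). The TTTGAA match of Spc25 lies after the start and is not in the stretch printed.
Spc25: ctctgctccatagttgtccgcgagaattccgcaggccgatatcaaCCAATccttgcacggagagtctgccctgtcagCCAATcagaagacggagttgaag
Cdc20: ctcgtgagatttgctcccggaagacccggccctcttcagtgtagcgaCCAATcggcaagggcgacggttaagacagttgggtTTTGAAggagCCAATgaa
Prc1: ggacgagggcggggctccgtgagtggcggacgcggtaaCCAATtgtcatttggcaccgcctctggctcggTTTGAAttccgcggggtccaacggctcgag
Cdk1: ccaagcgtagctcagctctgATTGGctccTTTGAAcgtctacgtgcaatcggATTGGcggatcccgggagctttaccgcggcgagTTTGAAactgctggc
Espl1: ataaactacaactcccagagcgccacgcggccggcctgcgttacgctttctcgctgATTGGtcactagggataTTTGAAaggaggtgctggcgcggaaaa
Melk: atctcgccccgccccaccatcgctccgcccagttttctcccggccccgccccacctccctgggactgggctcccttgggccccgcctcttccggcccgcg
Nusap1: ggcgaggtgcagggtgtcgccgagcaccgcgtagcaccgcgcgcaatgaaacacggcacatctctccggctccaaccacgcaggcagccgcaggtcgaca

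**Figure D1:**
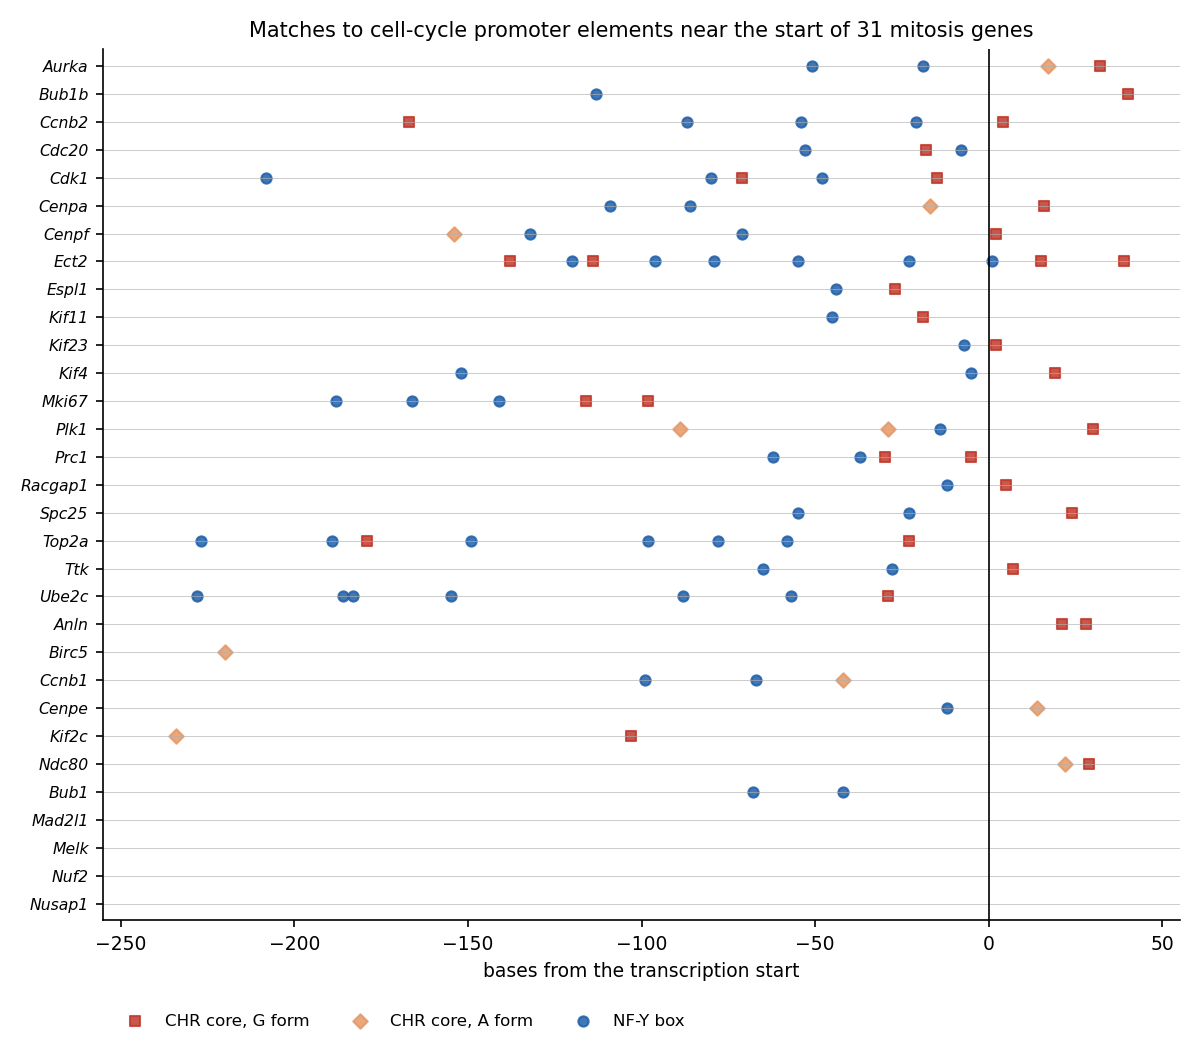
Matches to cell-cycle promoter elements in 31 mitosis genes, by distance of the first base from the transcription start (x axis, bases) and gene (y axis); squares and diamonds are the 2 CHR cores and circles the NF-Y box. Most squares lie within 50 bases of the start, and the 4 lowest genes, Mad2l1, Melk, Nuf2 and Nusap1, have no match.

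Array correlations and the lung marker list were even across the series. Correlations between arrays of a group were at least 0.989, and RNA integrity numbers ran from 7 to 10. The alveolar epithelium list (8 genes, Sftpc among them), which marks lung, averaged 14.54 to 14.99 on every array. The squamous epithelium list was uneven, from 6.26 on PBS + LNA-miR-199a-5p replicate 3 to 12.36 on bleomycin + LNA-miR-199a-5p replicate 4. In the bleomycin + LNA-control group, replicates 1 and 4 stood apart: Rag1, the recombinase of immature lymphocytes, was 10.03 and 10.88 there and 5.43 to 6.1 on the other 14 arrays. Dntt, the terminal transferase of the same cells, was 11.10 and 12.17 there against 6.56 to 7.35. The mean of 12 immature thymocyte genes was 8.99 and 9.73 on those 2 arrays and 7.22 to 7.65 elsewhere. Immature thymocytes are a dividing population, so the bleomycin + LNA-control results are given with and without these 2 arrays.

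After bleomycin with LNA-control, nearly the whole mitotic set was higher than after PBS with the same oligonucleotide. On all 16 arrays 35 of 37 genes were called higher and none lower, with a median difference of 1.39, against 9.6% of all genes called higher and a median of 0.00. Since the list was chosen with earlier results known, shares of all genes are given for scale and are no independent test. The rise ran from 0.32 for Cenpf to 2.18 for Pbk. The exceptions were Aurkb and Bub1. In 29 genes every bleomycin + LNA-control array lay above every PBS + LNA-control array, as it did in 13.9% of all genes. Without the 2 arrays with high Rag1, 29 genes were called higher, with a median of 1.06, against 6.26% of all genes. Groups did not overlap in 29 genes in that fit, against 17.6% of all genes. Leaving out arrays cannot create overlap, so this count could not fall and is no check on the 2 arrays. The genes no longer called were Cenpa, Cenpf, Kif2c, Mad2l1, Ndc80 and Ttk.

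**Figure D2:**
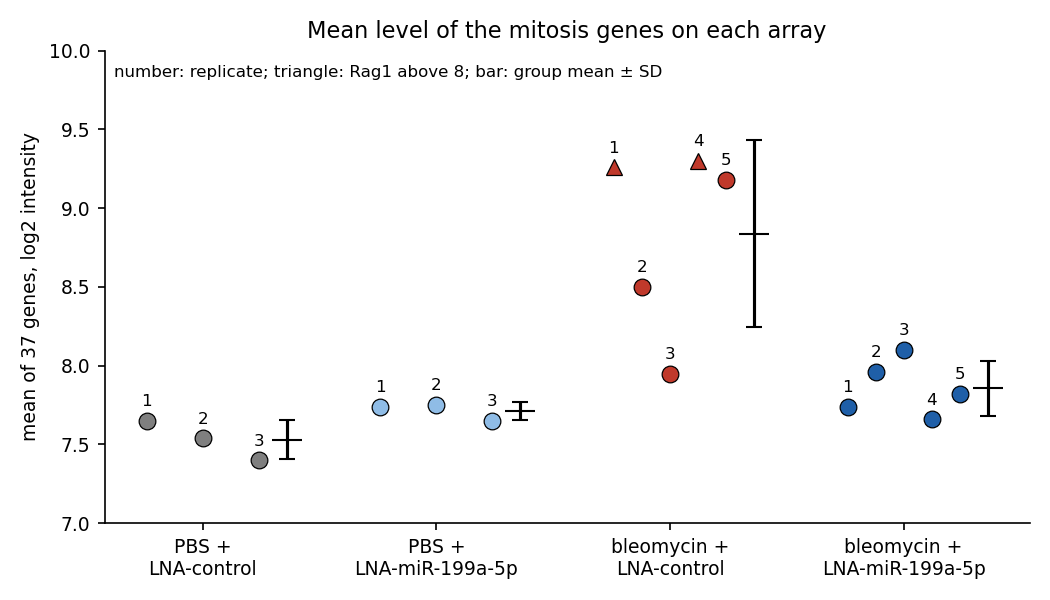
Mean log2 intensity of the 37 mitosis genes (y axis) on each of the 16 arrays, by group, with the group mean ± SD as bars, and triangles for the arrays with Rag1 above 8. Replicates 1, 4 and 5 of bleomycin + LNA-control sit at 9.18 to 9.30, replicates 2 and 3 at 8.50 and 7.95, and the bleomycin + LNA-miR-199a-5p arrays at 7.66 to 8.10.

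With LNA-miR-199a-5p the same injury left the set near its PBS level. One gene of 37, Espl1, was called higher and none lower, with a median difference of 0.11, against 7.31% of all genes called higher and a median of 0.01. Among 37 genes, 1 reached an unadjusted p under 0.05, against 6279 of all 20863 genes. The bleomycin arrays lay above all PBS arrays of the same oligonucleotide in 7 genes, Bub1b, Cdc20, Espl1, Kif2c, Plk1, Tpx2 and Ube2c, against 10.5% of all genes. The other differences ran from a fall of 0.58 for Cdk1 (SE 0.38, adjusted p = 0.325), which was not called, to 0.45 ± 0.24 for Plk1 (adjusted p = 0.214). A miss does not show that no change took place, and the SEs ran from 0.10 to 0.38. The fit shares 1 spread per gene over all groups. The median SD of these genes was 0.636 with bleomycin + LNA-control, against 0.231 and 0.105 in the groups compared here. The SEs thus carry spread from arrays outside the comparison, and the counts cannot tell a small change from none.

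Among the cyclins and their kinase, all 3 measured genes rose with LNA-control and none was called with LNA-miR-199a-5p. Ccna2, cyclin A2, was 8.58, 8.36 and 8.20 on the PBS + LNA-control arrays and 8.51, 8.64 and 8.58 on the PBS + LNA-miR-199a-5p arrays. It was 10.78, 9.74, 9.03, 10.80 and 10.60 on bleomycin + LNA-control replicates 1 to 5 and 8.73, 8.98, 9.32, 8.61 and 8.85 with bleomycin + LNA-miR-199a-5p. Every bleomycin + LNA-control array was above all PBS arrays, and replicate 3 overlapped the bleomycin + LNA-miR-199a-5p range. The difference with bleomycin was 1.81 ± 0.31 with LNA-control (adjusted p = 0.000671, 3.51-fold) and 1.41 ± 0.28 without the 2 high-Rag1 arrays (adjusted p = 0.00546). Ccnb2, cyclin B2, was 9.47, 9.25 and 9.04 in PBS + LNA-control lungs, 9.79, 9.55 and 9.64 with PBS + LNA-miR-199a-5p, 11.37, 10.61, 9.42, 11.30 and 11.14 with bleomycin + LNA-control and 9.55, 9.71, 9.83, 9.14 and 9.22 with bleomycin + LNA-miR-199a-5p. Replicate 3 of bleomycin + LNA-control, at 9.42, lay inside the PBS range, so the groups overlapped. The Ccnb2 difference was 1.52 ± 0.32 (adjusted p = 0.00344), and 1.14 ± 0.32 without the 2 arrays (adjusted p = 0.0315). Cdk1 itself rose by 1.74 ± 0.38 (adjusted p = 0.00433), and by 1.34 ± 0.38 without them (adjusted p = 0.0339). Its dimmer probes, at mean levels of 5.54 and 5.24, gave rises of 0.26 and 0.25 on all arrays.

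The kinases of entry and spindle assembly rose with them. Pbk, a kinase active in mitosis, had the largest difference of all 37 genes, 2.18 ± 0.38 (4.53-fold, adjusted p = 0.000811). It stood at 7.29, 6.98 and 6.82 with PBS + LNA-control, 7.34, 7.52 and 7.23 with PBS + LNA-miR-199a-5p, 9.97, 8.75, 7.77, 9.70 and 9.86 with bleomycin + LNA-control, and 7.41, 7.90, 8.02, 7.12 and 7.20 with bleomycin + LNA-miR-199a-5p. The lowest bleomycin + LNA-control array was above all 6 PBS arrays but below the highest with bleomycin + LNA-miR-199a-5p. Without the 2 high-Rag1 arrays the difference was 1.76 ± 0.38 (adjusted p = 0.00855). Plk1, which acts from mitotic entry to cytokinesis, rose by 1.78 ± 0.24 (adjusted p = 8.06e-05), Aurka, the centrosomal Aurora kinase, by 1.76 ± 0.31, and Melk by 1.36 ± 0.24. Without the 2 arrays these 3 rises were 1.5, 1.37 and 1.09, all called.

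Aurkb, the Aurora kinase of the chromosomal passenger complex, did not follow them. It was 5.08, 5.08 and 5.30 with PBS + LNA-control, 4.85, 5.30 and 5.12 with PBS + LNA-miR-199a-5p, 4.96, 5.02, 5.24, 5.21 and 5.22 with bleomycin + LNA-control and 5.17, 5.19, 5.23, 5.22 and 5.00 with bleomycin + LNA-miR-199a-5p. All groups overlapped, and the difference with bleomycin was -0.03 ± 0.10 (adjusted p = 0.915). Its mean of 5.14 lay below 5.16, the 10th percentile of all spots, so its probe read near the floor of the arrays. Birc5, survivin, which belongs to the same complex, rose by 1.67 ± 0.33 (adjusted p = 0.00196), and by 1.24 ± 0.30 without the 2 arrays (adjusted p = 0.0155). Cdca8, borealin, a further subunit, which is not among the 38 genes, rose by 1.80 (adjusted p = 0.00046), and by 1.47 without them (adjusted p = 0.00488).

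In the spindle checkpoint and anaphase group, 6 of 7 genes rose. Cdc20, the activator of the anaphase-promoting complex, was 9.66, 9.32 and 9.15 with PBS + LNA-control, 9.59, 9.63 and 9.66 with PBS + LNA-miR-199a-5p, 11.50, 11.17, 10.14, 11.84 and 11.58 with bleomycin + LNA-control and 9.75, 9.90, 10.06, 10.15 and 10.41 with bleomycin + LNA-miR-199a-5p. Both bleomycin groups lay wholly above the PBS arrays of their own oligonucleotide, by a far larger step with LNA-control. The differences were 1.87 ± 0.27 with LNA-control (adjusted p = 0.000168), 1.59 ± 0.27 without the 2 high-Rag1 arrays, and 0.43 ± 0.27 with LNA-miR-199a-5p, which was not called. Ube2c, the ubiquitin-conjugating enzyme that works with the same complex, rose by 1.67 ± 0.25 (adjusted p = 0.000242), and by 1.32 ± 0.22 without the 2 arrays (adjusted p = 0.0015). Its 2 probes gave 1.67 and 1.71 on all arrays.

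Espl1, separase, which cuts cohesin at anaphase, was the one gene called in both oligonucleotide arms. Its levels were 6.70, 6.54 and 6.65 with PBS + LNA-control, 6.41, 6.70 and 6.52 with PBS + LNA-miR-199a-5p, 7.98, 7.73, 7.32, 7.95 and 7.88 with bleomycin + LNA-control, and 6.96, 7.21, 7.33, 7.43 and 7.68 with bleomycin + LNA-miR-199a-5p. All bleomycin arrays of either oligonucleotide lay above all PBS arrays. The rise was 1.14 ± 0.15 with LNA-control (adjusted p = 8.76e-05) and 0.78 ± 0.15 with LNA-miR-199a-5p (adjusted p = 0.00796). Without the 2 high-Rag1 arrays these were 1.01 ± 0.17 and 0.78 ± 0.15 (adjusted p = 0.0127). The interaction, which tests the difference between these 2 rises, did not pass (adjusted p = 0.34).

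The checkpoint genes proper changed less. Bub1b rose by 0.90 ± 0.19 (0.68 without the 2 arrays, called), Mad2l1 by 0.69 ± 0.21 (0.50, not called) and Ttk, the kinase that starts checkpoint signalling, by 0.47 ± 0.15 (adjusted p = 0.0414). Ttk was dim, at 5.47, 5.24 and 5.17 with PBS + LNA-control, 5.20, 5.08 and 5.28 with PBS + LNA-miR-199a-5p, 6.08, 5.60, 5.32, 5.90 and 5.91 with bleomycin + LNA-control and 5.45, 5.46, 5.40, 5.00 and 5.13 with bleomycin + LNA-miR-199a-5p. The lowest bleomycin array overlapped PBS, and without the 2 high-Rag1 arrays the call was lost (0.32 ± 0.15, adjusted p = 0.233). Bub1, the partner kinase of the checkpoint, missed the threshold at 0.76 ± 0.26 (adjusted p = 0.0563), and gave 0.42 ± 0.24 without the 2 arrays (adjusted p = 0.318). Its 10 spots agreed closely, with differences from 0.69 to 0.87, and their mean was called in place of the single brightest spot, which raised the count to 36 genes.

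All 8 genes of the centromere and kinetochore were called higher, and 5 of 8 without the 2 high-Rag1 arrays. The 4 subunits of the Ndc80 complex, which carries the microtubule contact of the outer kinetochore, all rose: Spc25 by 1.97 ± 0.29, Spc24 by 1.30 ± 0.21, Nuf2 by 1.10 ± 0.24 and Ndc80 by 0.80 ± 0.20. Without the 2 arrays the differences were 1.60, 1.06, 0.83 and 0.57, of which that of Ndc80 was not called (adjusted p = 0.0709). Spc25 was 9.15, 9.07 and 8.98 with PBS + LNA-control, 9.29, 9.33 and 9.21 with PBS + LNA-miR-199a-5p, 11.43, 10.69, 9.90, 11.75 and 11.42 with bleomycin + LNA-control, and 9.13, 9.53, 9.50, 9.17 and 9.41 with bleomycin + LNA-miR-199a-5p. Here the whole bleomycin + LNA-control group lay above every other array, replicate 3 included. Its adjusted p was 0.000168, and 0.00125 without the 2 arrays, where the rise was 1.60 ± 0.26. Cenpe, the kinetochore motor, rose by 1.67 ± 0.30 (1.30 ± 0.28 without the 2 arrays), and Cenpa, the centromeric histone, by 0.86 ± 0.23, a call lost without the 2 arrays (0.61 ± 0.23, adjusted p = 0.114).

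Cenpf, a large outer kinetochore protein, was dim and changed least of those called. It was 5.24, 5.17 and 5.30 with PBS + LNA-control, 5.48, 5.27 and 5.17 with PBS + LNA-miR-199a-5p, 5.74, 5.40, 5.32, 5.61 and 5.71 with bleomycin + LNA-control and 5.36, 5.36, 5.41, 5.37 and 5.64 with bleomycin + LNA-miR-199a-5p. The difference of 0.32 ± 0.11 (adjusted p = 0.0462) was called in 5 of the 16 fits that left out a single array, and not without the 2 high-Rag1 arrays (0.24 ± 0.12, adjusted p = 0.225).

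The 6 spindle motors and spindle proteins were all called higher. Tpx2, which activates Aurka on the spindle, was 6.97, 7.07 and 6.36 with PBS + LNA-control, 7.07, 7.06 and 7.03 with PBS + LNA-miR-199a-5p, 9.09, 8.30, 7.47, 9.01 and 8.94 with bleomycin + LNA-control and 7.20, 7.52, 7.64, 7.27 and 7.44 with bleomycin + LNA-miR-199a-5p. Both bleomycin groups were above the PBS arrays of their oligonucleotide, by 1.76 ± 0.28 (adjusted p = 0.000385) and by 0.36 ± 0.28, which was not called (adjusted p = 0.416). The rise with LNA-control was 1.44 ± 0.27 without the 2 high-Rag1 arrays (adjusted p = 0.00399). Dlgap5, a microtubule-binding spindle protein, was dimmer, at 5.50, 5.53 and 5.55 with PBS + LNA-control, 5.62, 5.64 and 5.56 with PBS + LNA-miR-199a-5p, 6.94, 5.88, 5.92, 6.30 and 6.45 with bleomycin + LNA-control and 5.51, 5.84, 5.61, 5.74 and 5.66 with bleomycin + LNA-miR-199a-5p. Its bleomycin + LNA-control arrays lay above all others, and the difference was 0.77 ± 0.17 (adjusted p = 0.00502), or 0.55 ± 0.13 without the 2 arrays (adjusted p = 0.0129). Nusap1, Kif11 (the plus-end motor that separates the poles), Kif4 and Kif2c (a microtubule depolymerase) rose by 1.44, 1.23, 0.87 and 0.83. Without the 2 arrays they stood at 1.05, 0.86, 0.66 and 0.67, and Kif2c lost its call (adjusted p = 0.136).

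All 6 midzone and cytokinesis genes rose, with and without the 2 high-Rag1 arrays. Prc1, which bundles the antiparallel microtubules of the midzone, was 9.26, 9.00 and 8.73 with PBS + LNA-control, 9.31, 9.23 and 9.25 with PBS + LNA-miR-199a-5p, 11.53, 10.59, 9.78, 11.54 and 11.31 with bleomycin + LNA-control, and 9.18, 9.43, 9.58, 9.28 and 9.24 with bleomycin + LNA-miR-199a-5p. As for Spc25, all bleomycin + LNA-control arrays lay above all others. The rise was 1.95 ± 0.30 (3.88-fold, adjusted p = 0.000243), and 1.56 ± 0.27 without the 2 arrays (adjusted p = 0.0019). Kif23, a motor subunit of centralspindlin, had the smallest rise of the group, 1.05 ± 0.20 (adjusted p = 0.00162), or 0.80 ± 0.19 without the 2 arrays (adjusted p = 0.014). It was 7.18, 7.08 and 6.96 with PBS + LNA-control, 7.41, 7.27 and 7.31 with PBS + LNA-miR-199a-5p, 8.57, 7.88, 7.37, 8.40 and 8.38 with bleomycin + LNA-control and 7.33, 7.48, 7.64, 7.13 and 7.39 with bleomycin + LNA-miR-199a-5p. Its replicate 3 lay above the PBS + LNA-control arrays and within the ranges of both LNA-miR-199a-5p groups. Racgap1, the other subunit of centralspindlin, rose by 1.15, Ect2, the exchange factor that it recruits, by 1.52, Kif20a by 1.71 and Anln, anillin, by 1.39. Without the 2 arrays these 4 rises were 0.86, 1.15, 1.36 and 1.03.

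Both chromosome proteins rose. Mki67, the antigen Ki-67, a standard marker of cycling cells, was 10.24, 10.10 and 9.88 with PBS + LNA-control, 10.41, 10.31 and 10.21 with PBS + LNA-miR-199a-5p, 12.36, 11.43, 10.66, 12.48 and 12.20 with bleomycin + LNA-control and 10.37, 10.80, 10.97, 10.48 and 10.44 with bleomycin + LNA-miR-199a-5p. The rise with LNA-control was 1.75 ± 0.30 (adjusted p = 0.000758), and 1.36 ± 0.28 without the 2 arrays (adjusted p = 0.00606). Top2a, the topoisomerase that untangles sister chromatids, was 7.06, 6.83 and 6.95 with PBS + LNA-control, 7.22, 7.02 and 6.72 with PBS + LNA-miR-199a-5p, 9.18, 8.14, 7.38, 9.21 and 8.87 with bleomycin + LNA-control, and 7.11, 7.44, 7.88, 7.05 and 7.43 with bleomycin + LNA-miR-199a-5p. In both genes replicate 3 of bleomycin + LNA-control lay within the range of bleomycin + LNA-miR-199a-5p. The Top2a rise was 1.61 ± 0.32 (adjusted p = 0.00213), and 1.18 ± 0.29 without the 2 arrays (adjusted p = 0.0165).

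**Figure D3:**
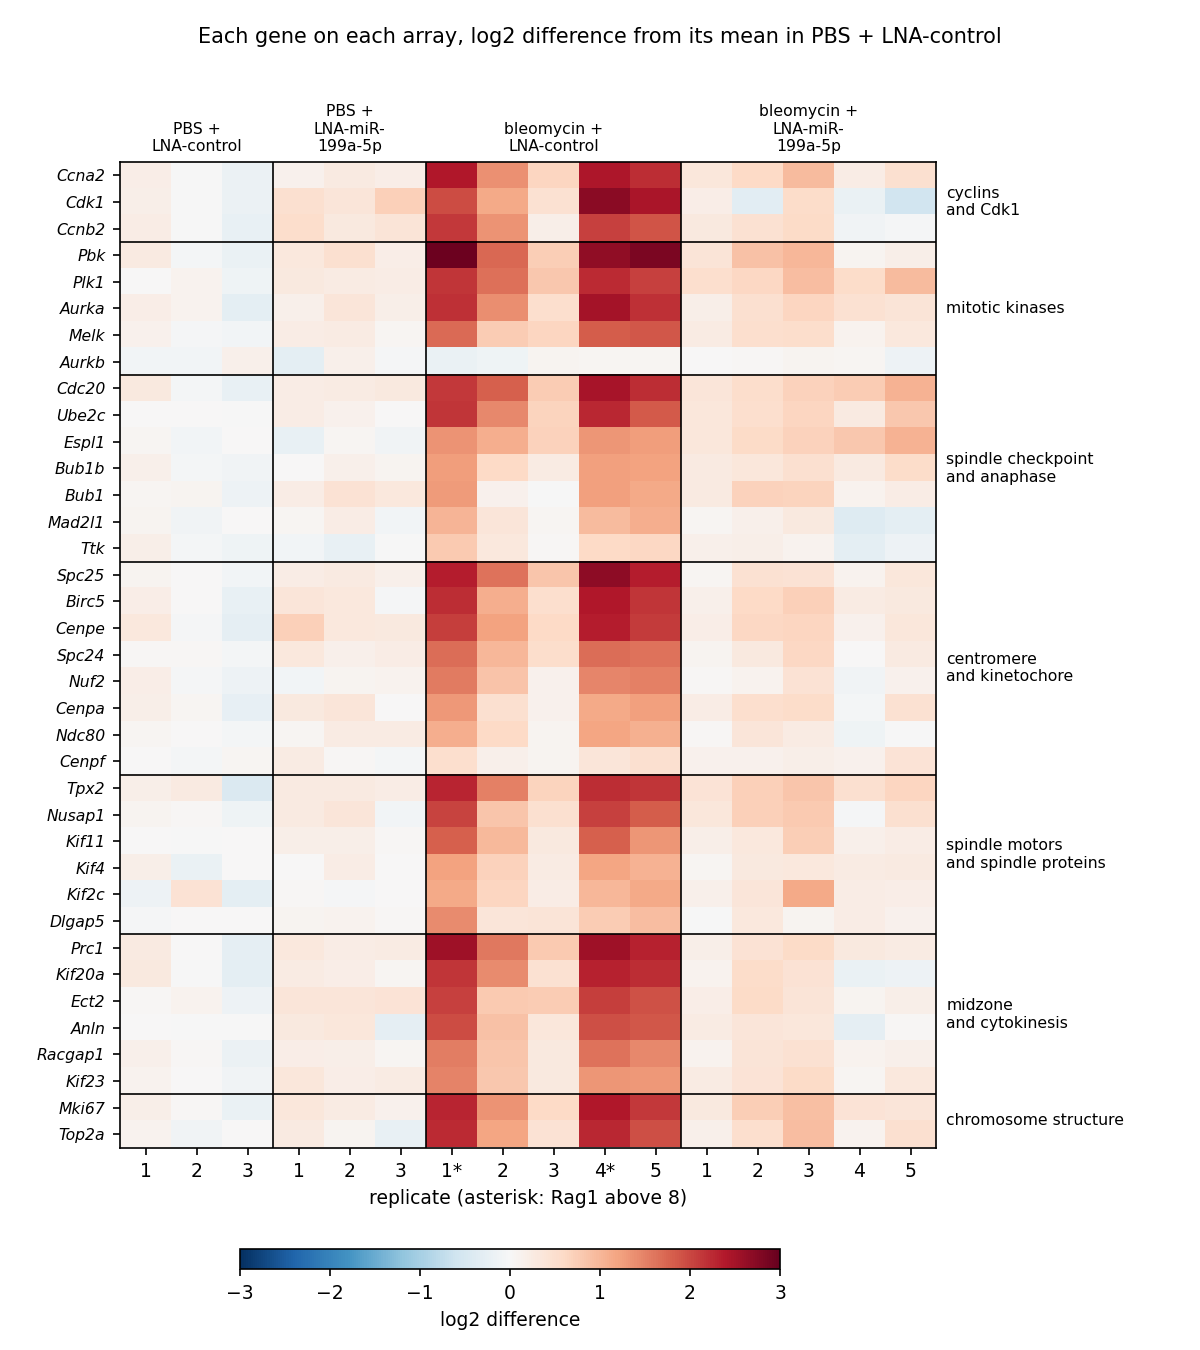
Log2 difference of each of the 37 genes (rows, by role) on each array (columns, by group and replicate) from its own mean over the 3 PBS + LNA-control arrays; red is higher, blue lower, and asterisks mark Rag1 above 8. Replicates 1, 4 and 5 of bleomycin + LNA-control are redder than replicates 2 and 3 in 36 of 37 rows, and Aurkb is pale on every array.

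The 5 bleomycin + LNA-control arrays fell unevenly, and the uneven part was shared by nearly all genes. The mean of the 37 genes was 9.26, 8.50, 7.95, 9.30 and 9.18 on replicates 1 to 5. It was 7.65, 7.54 and 7.40 with PBS + LNA-control, 7.74, 7.75 and 7.65 with PBS + LNA-miR-199a-5p, and 7.74, 7.96, 8.10, 7.66 and 7.82 with bleomycin + LNA-miR-199a-5p. In 36 of 37 genes replicates 2 and 3 both lay below replicates 1, 4 and 5. Replicate 3 was above every bleomycin + LNA-miR-199a-5p array in 6 genes, replicate 2 in 32 and replicate 5 in 36. The median SD of a gene between arrays was 0.636 in this group, against 0.231 with bleomycin + LNA-miR-199a-5p, 0.143 with PBS + LNA-control and 0.105 with PBS + LNA-miR-199a-5p.

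Replicate 5 bears on the thymocyte transcripts of replicates 1 and 4. It carried Rag1 at 6.00 and Dntt at 7.35, the highest Dntt outside replicates 1 and 4. Replicates 2 and 3 were lower in both, with Rag1 at 5.50 and 5.64 and Dntt at 6.94 and 6.73. The thymocyte list of replicate 5 averaged 7.35, within the range of the other arrays. Its mitosis genes were as high as on the 2 high-Rag1 arrays: the mean was 0.10 below theirs and 0.95 above that of replicates 2 and 3. All 37 genes lay within 0.5 of their mean on replicates 1 and 4. The part of the thymocytes in the levels of replicates 1 and 4 was not tested. RNA integrity was 9, 8, 9, 8 and 7 on replicates 1 to 5, with 9 among both the high and the low arrays. The mean of 10 macrophage genes was 12.59, 12.44, 12.31, 12.47 and 12.72 on the same arrays. The 3 arrays high in mitosis genes were thus also the 3 highest in macrophage genes, though replicates 4 and 2 were nearly level. The list of 7 squamous epithelium genes ran the other way, at 10.45, 11.24, 11.48, 10.35 and 10.43. So did the endothelium list, at 12.16, 12.24, 12.29, 11.99 and 12.07, and the alveolar list, at 14.61, 14.65, 14.93, 14.54 and 14.56. The airway list did too, at 12.99, 13.46, 13.21, 13.10 and 13.03. The list of erythroid precursors, which also divide, averaged 9.66, 9.76, 9.64, 9.68 and 9.55. The part of these cells in the uneven levels was not tested.

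Since replicate 5 holds up the remaining group of 3, it was also left out. With replicates 2 and 3 as the only bleomycin + LNA-control arrays, 17 of 37 genes were called higher than PBS, with a median of 0.76, against 3.55% of all genes. In such a small group the spread was borrowed from the other groups.

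**Figure D4:**
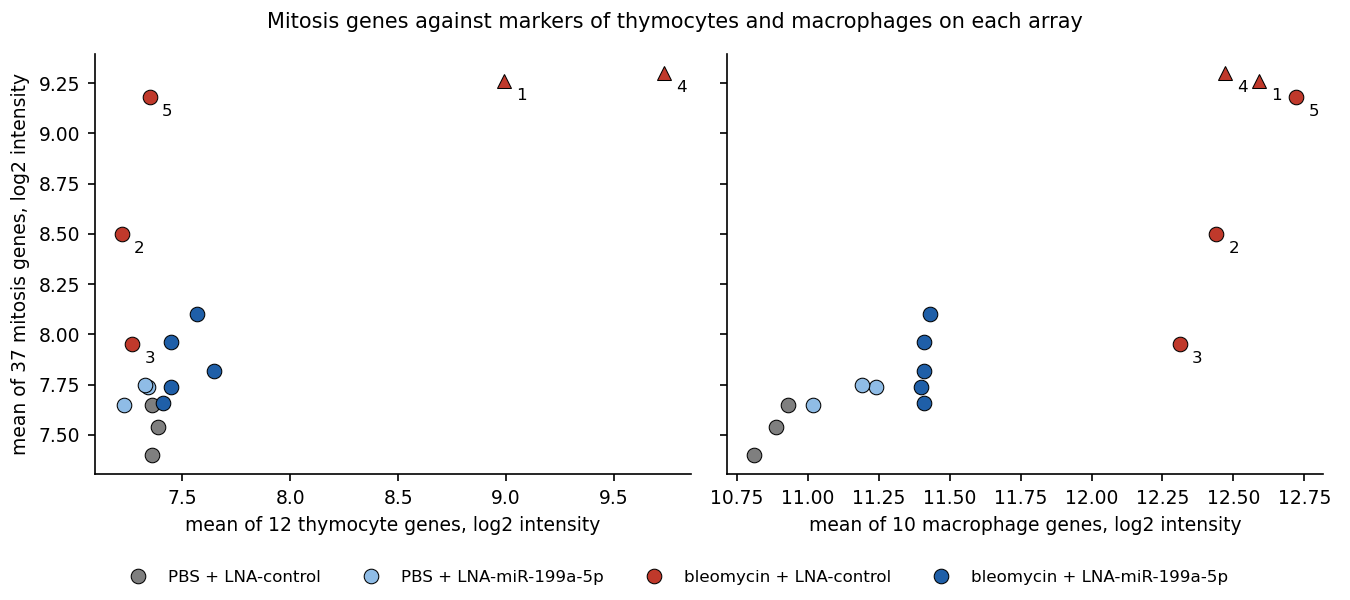
Mean of the 37 mitosis genes (y axis) against the mean of 12 immature thymocyte genes (left) and of 10 macrophage genes (right) on each array, all as log2 intensity; colours give the group, numbers the bleomycin + LNA-control replicates and triangles Rag1 above 8. Replicate 5 is as high as replicates 1 and 4 in mitosis genes with thymocyte genes at 7.35, and all 5 bleomycin + LNA-control arrays exceed 12.3 in macrophage genes.

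Set against each other, the 2 bleomycin groups differed in most genes. This comparison uses the same bleomycin + LNA-control arrays as the rise above, so the values are not independent of each other. LNA-miR-199a-5p lungs were called lower in 32 of 37 genes and higher in none, with a median of -1.05, against 11.4% of all genes called lower and a median of 0.01. The largest falls were those of Cdk1 (-1.81 ± 0.33, adjusted p = 0.00115), Spc25 (-1.69 ± 0.25, adjusted p = 0.000196), Pbk (-1.68 ± 0.33, adjusted p = 0.00191) and Prc1 (-1.61 ± 0.26, adjusted p = 0.000381). The dimmer Cdk1 probes gave -0.26 and -0.25 in this comparison. The genes not called were Aurkb, Bub1, Cenpa, Cenpf and Kif2c. For Bub1 the spot used gave -0.36, the smallest fall of its 10 spots, and the others gave -0.50 to -0.58. Groups did not overlap in 5 genes, Dlgap5, Ect2, Melk, Prc1 and Spc25, against 6.46% of all genes. RNA integrity averaged 8.2 in bleomycin + LNA-control lungs and 9.0 with bleomycin + LNA-miR-199a-5p, and with it as a covariate 28 genes were called lower.

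Without the 2 high-Rag1 arrays, 19 genes were called lower, with a median of -0.75, against 5.57% of all genes. Groups did not overlap in 5 genes, against 7.87%, a count that could not fall when arrays were left out. By role these 19 were 5 of 6 midzone genes, 4 of 5 kinases, 2 of 3 cyclins and Cdk1, 3 of 8 kinetochore genes, 2 of 6 spindle proteins, 2 of 7 checkpoint and anaphase genes, and 1 of 2 chromosome proteins. Spc25 kept the smallest adjusted p of them (-1.32 ± 0.23, adjusted p = 0.0027), and Prc1 the next (-1.22 ± 0.24, adjusted p = 0.00546). With replicate 5 out as well, 3 genes stayed below the threshold, Ect2, Prc1 and Spc25, with a median over the 37 genes of -0.38, against 2.53% of all genes called lower.

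In PBS lungs no gene of the set was called, where 0.0479% of all genes were called in either direction. The median difference between the oligonucleotides was 0.19, with 34 of 37 genes higher with LNA-miR-199a-5p, none of them called. Arrays did not overlap in 10 genes, all higher with LNA-miR-199a-5p, against 10.2% of all genes. In this fit none reached an unadjusted p under 0.05, against 1526 of all 20863 genes, and Cdk1 had the largest difference, 0.51. Its SEs also carry the wide spread of the bleomycin + LNA-control arrays, so these misses do not show that no change took place. Same-numbered PBS arrays deviated together for numbers 1 and 3 (correlations 0.411 and 0.497). For number 2 the correlation was 0.108, below that of a differently numbered pair (0.287), so pairing by number was not established. Taken by number, the mean of the 37 genes went from 7.65 to 7.74, from 7.54 to 7.75 and from 7.40 to 7.65. It was higher with LNA-miR-199a-5p each time. In a fit of the 6 PBS arrays with the replicate number as a block, chosen after the data were seen, none was called (smallest adjusted p = 0.24), but 14 of 37 genes reached an unadjusted p under 0.05, against 11.4% of all genes.

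The interaction asks whether the response to bleomycin differed between the oligonucleotides. It was lower with LNA-miR-199a-5p in 16 of 37 genes at the threshold, with a median of -1.21, against 3.94% of all genes. Among them were both Cdk1 (-2.32, adjusted p = 0.0189) and Ccnb2 (-1.68), 4 kinases, Cdc20 and Ube2c, Cenpe, Spc24 and Spc25, Tpx2, and 4 of 6 midzone genes. Without the 2 high-Rag1 arrays, Spc25 (-1.54, adjusted p = 0.0332) and Prc1 (-1.48, adjusted p = 0.0445) remained called, 2 of 37 against 1.62% of all genes, and the median was -0.93. The count swung from 1 to 31 as single arrays were left out: 1 without PBS + LNA-control replicate 3, 3 without its replicate 2, 4 without PBS + LNA-miR-199a-5p replicate 1, and 31 without bleomycin + LNA-control replicate 3. With the replicate number as a block 8 genes were called.

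**Figure D5:**
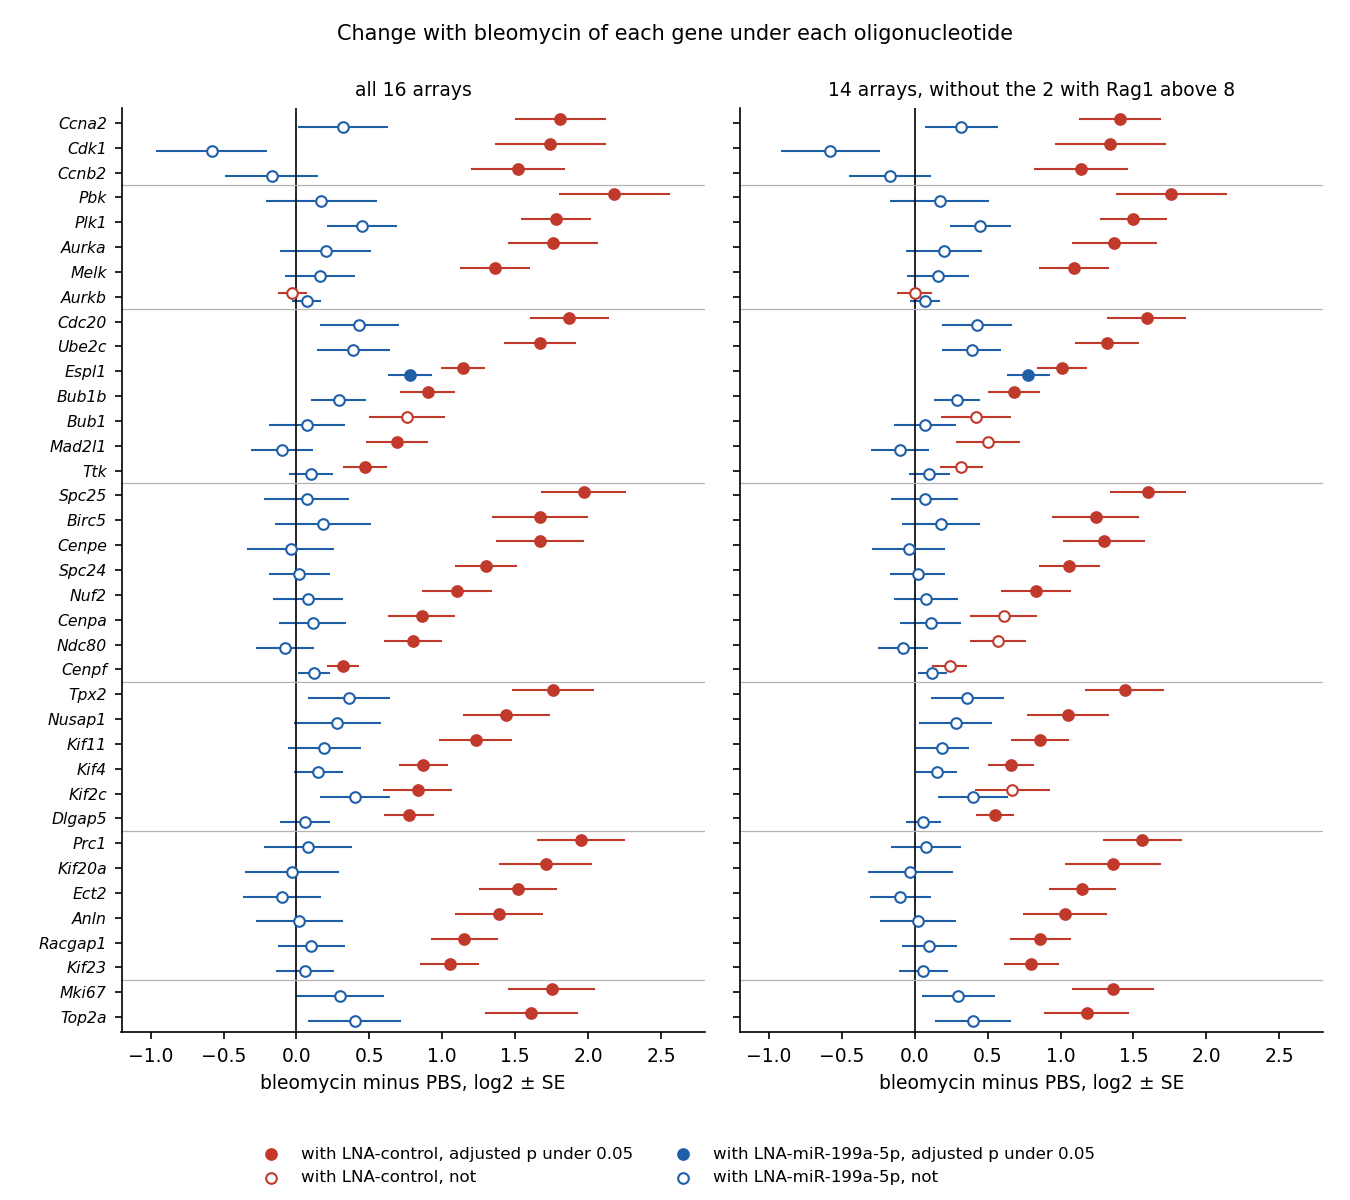
Log2 difference of bleomycin from PBS ± SE (x axis) for each of the 37 genes (y axis, by role) with LNA-control (red) and LNA-miR-199a-5p (blue), on all 16 arrays (left) and without the 2 with Rag1 above 8 (right); filled points have an adjusted p under 0.05. The red points lie to the right of the blue in every row but Aurkb on both sides, and Espl1 is the one filled blue point.

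Other genes of the same processes were read from lists of their own, also chosen with earlier results of these data known. Their counts with bleomycin + LNA-control stand against 9.6% of all genes called higher and 7.9% lower, or 6.26% and 4.56% without the 2 high-Rag1 arrays. Of 30 further centromere and kinetochore genes, 20 were called higher and none lower, with a median of 0.73, and 10 without the 2 arrays. Cenpn, a reader of the centromeric histone, rose by 0.80 (adjusted p = 9.62e-05), and Ska3 and Cenpk by 1.22 and 1.23, and without the 2 arrays these were 0.68, 0.96 and 0.97. Of 24 further spindle and cytokinesis genes 19 rose, with a median of 1.04, and 13 without the 2 arrays; Iqgap3 (2.06) and Ckap2 (1.84) led, at 1.78 and 1.56 without them. Of 8 further checkpoint genes 4 rose, 2 without the 2 arrays, among them Kntc1 (0.97, then 0.77) and Zwilch (0.93, then 0.71), 2 subunits of the same kinetochore complex. Of 10 mitotic entry genes 8 rose, 3 without the 2 arrays, Ccnf by 1.51 (then 1.11) and Wee1, which holds Cdk1 inactive, by 0.71 (then 0.64). With LNA-miR-199a-5p, 2 of 30, none of 24, none of 8 and 1 of 10 of these genes were called, against 7.31% of all genes called higher.

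In the list of the anaphase-promoting complex, with its regulators and securin, 1 of 16 was higher and 3 lower, with a median of -0.02. Of all genes, 9.6% were called higher and 7.9% lower. The called subunits were Cdc26, at -0.26 (adjusted p = 0.0196) and -0.30 without the 2 arrays (adjusted p = 0.0263), and Anapc13, at -0.23 (adjusted p = 0.0338), then -0.20 and not called. Fbxo5, an inhibitor of the complex, rose by 0.67 (adjusted p = 0.0163), and gave 0.39 without the 2 arrays (adjusted p = 0.0899). Pttg1, securin, fell by 0.49 (adjusted p = 0.0166), and gave -0.46 without them (adjusted p = 0.0811).

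The share of promoter windows with TTTGAA did not run along with these counts in every list. It was 72.0% for the further spindle and cytokinesis genes, 55.6% for the checkpoint genes, 50% for condensin and cohesin and 33.3% for the kinetochore genes. It was 11.8% for the anaphase-promoting complex, but also 16.7% for the mitotic entry genes, of which 8 of 10 rose, with windows found for 6 of them. The share over all windows was 17.9%.

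Of 14 condensin and cohesin genes 6 were higher and 1 lower, and 2 and none without the 2 arrays, with Cdca5, sororin, at 1.55 and 1.18. All genes were called higher in 9.6% and 6.26% in these fits, and lower in 7.9% and 4.56%. Among 20 regulators of mitotic transcription 7 were higher and 1 lower, and 5 and none without the 2 arrays. Foxm1, the activator of this gene programme, rose by 1.34 (adjusted p = 0.000163) and by 1.16 without the 2 arrays, and Mybl2, its partner at the CHR element, by 0.93 and 0.72. E2f7 and E2f8, repressors that peak with the cycle, rose by 1.41 and 1.15, and by 1.10 and 0.89 without the 2 arrays. None of these 4 was called with LNA-miR-199a-5p, where 3 of the 20 regulators were called higher, against 7.31% of all genes.

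Of 8 inhibitors of cyclin-dependent kinases 3 were called higher and 2 lower, with a median of 0.15, and 2 and 1 without the 2 high-Rag1 arrays. Of all genes, 9.6% were called higher and 7.9% lower, or 6.26% and 4.56% without these arrays. Cdkn1a, p21, an arrest gene induced by DNA damage, rose by 1.89 with LNA-control (adjusted p = 1.92e-05) and by 2.00 without the 2 high-Rag1 arrays. It was 10.37, 10.37 and 10.35 with PBS + LNA-control, and 11.52, 12.48, 12.30, 12.68 and 12.32 with bleomycin + LNA-control. In that group it was 12.48 and 12.30 on replicates 2 and 3, where the mitosis genes were lowest. It was highest, at 12.68, on the array with the highest mean of the mitosis genes. Its lowest value, 11.52, was also on an array high in mitosis genes. Whether Cdkn1a ran with or against the mitosis genes over these arrays was not tested. Its level with bleomycin + LNA-miR-199a-5p was 11.17, 11.36, 11.20, 12.03 and 11.67, lower than with bleomycin + LNA-control by 0.77 (adjusted p = 0.00688). Cdkn2a, of cell senescence, rose by 0.73 (adjusted p = 0.0103), and stood at 0.65 without the 2 arrays (adjusted p = 0.0672). Cdkn3, a phosphatase of Cdk kinases, rose by 1.39 and 1.14. Cdkn1b, p27, which is high in resting cells, fell by 0.50 in both fits (adjusted p = 0.000774 and 0.00712), and Cdkn1c, p57, fell by 0.51 (adjusted p = 0.0168), with -0.48 without the 2 arrays (adjusted p = 0.0801).

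Markers of other cells were read beside the mitosis genes. In bulk tissue, fewer cells of a type and less RNA per cell cannot be told apart. Of 10 macrophage genes 8 rose with bleomycin + LNA-control, against 9.6% of all genes. With LNA-miR-199a-5p in bleomycin lungs 8 were lower, against 11.4%, and 1 was higher, against 13.4%. All these counts were the same without the 2 high-Rag1 arrays. The list averaged 10.81 to 10.93 with PBS + LNA-control, 11.02 to 11.24 with PBS + LNA-miR-199a-5p, 12.31 to 12.72 with bleomycin + LNA-control and 11.40 to 11.43 with bleomycin + LNA-miR-199a-5p. Trem2, a receptor of lipid-handling macrophages, rose by 3.47 (adjusted p = 4.08e-12), and by 3.50 without the 2 arrays.

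Genes of the other lists were called in either direction or not at all. Of 6 endothelial genes 4 were called lower with bleomycin + LNA-control in both fits, against 7.9% of all genes on all arrays and 4.56% without the 2, and 5 were higher with LNA-miR-199a-5p in bleomycin lungs in both fits, against 13.4% and 5.72%. Of 6 B and plasma cell genes 2 were lower with bleomycin + LNA-control, and 4 were higher with LNA-miR-199a-5p in bleomycin lungs, or 1 and 3 without the 2 arrays. Of 8 alveolar genes 2 were lower and 4 higher in these comparisons, or none and 1 without them. Of 7 fibroblast genes 3 rose and 1 fell with bleomycin + LNA-control, with a median of -0.13, and 2 rose without the 2 arrays. All genes were called higher there in 9.6% and 6.26%. Col1a1, a chain of type I collagen, was among the higher ones at 1.23 and 1.07. With LNA-miR-199a-5p in bleomycin lungs 3 fibroblast genes were higher and 3 lower, or 2 and 3 without the 2 arrays. All genes were called lower there in 11.4% and 5.57%. Of 10 erythroid genes none was called with bleomycin + LNA-control, and 3 were higher with LNA-miR-199a-5p in bleomycin lungs, or 1 without the 2 arrays. Of 6 airway genes 1 was lower and 1 higher in these comparisons, or none and 1 without the 2 arrays, and of 7 squamous genes none was called. Of 12 thymocyte genes none was called in these comparisons on all 16 arrays. Without the 2 arrays 1 was lower with bleomycin + LNA-control and 3 were higher with LNA-miR-199a-5p in bleomycin lungs. The part of these cells in the mitosis result was not tested.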

How the data were processed

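Total RNA of whole lung, taken with TRIzol per the labels, was labelled with Cy3 and hybridised to 1-colour arrays. The deposited table holds log2 intensities of 62976 spots, for which the submitters' processing notes name limma with no version. Arrays share 1 distribution, as quantile normalization gives: at equal ranks they differed by at most 0.0974. Background correction and scanner settings are not given in the sources used here. Gene names came from the platform table for 31465 probes and were updated through RefSeq for 29036. For genes with several probes (6086) the one with the highest mean was kept. Dimmer probes of Ect2, Tpx2, Nuf2 and Dlgap5 gave smaller rises with LNA-control, of 0.35, 0.50, 0.18 and 0.28. Those of Mki67, Racgap1 and Kif2c gave 1.70, 1.03 and 0.80, those of Birc5 1.59 and 1.35, and those of Mad2l1 0.46 and 0.47. One limma fit (3.58.1, R 4.3.3; lmFit, eBayes) of the 4 group means over 20863 genes gave 5 two-sided contrasts, adjusted by Benjamini-Hochberg over all genes. Precision is limited by the number of arrays. The fit was repeated without the arrays with Rag1 above 8.

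The members and the gene lists were chosen with earlier results of these data known. Values on every array are given for the members with the largest and smallest bleomycin difference with LNA-control (without the high-Rag1 arrays) in each role. Array values of Espl1 and Cdkn1a were added after their values were seen. From the other lists up to 4 genes with the smallest p in that contrast and 2 called the other way could be named, and from the marker lists up to 3 and Rag1. Same-numbered PBS arrays of the 2 oligonucleotides had correlations of 0.411, 0.108 and 0.497 for numbers 1 to 3. Differently numbered PBS arrays gave -0.452 to 0.287, and other same-numbered pairs -0.373 to 0.324. With 3 arrays in a group such correlations constrain each other, so pairing by number was not established. Other settings left out each array, used the replicate number as a block, array weights, RNA integrity as a covariate, all probes of a gene, bright genes, median centring, a trended robust prior and the compared groups alone.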

Additional observations from a re-analysis of the deposited data

Results flagged for a closer look

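In 5 of 76 groups of 5 arrays tested, 1 array lay far from the other 4, against about 1 in 20 expected by chance. All were in bleomycin + LNA-miR-199a-5p. Aurkb on replicate 5 was low at 5.0, against 5.17 to 5.23 on the others, and Cenpf on the same array was high at 5.64, against 5.36 to 5.41. Replicate 3 was high for Kif11 at 7.11, against 6.53 to 6.7, and for Kif2c at 7.0, against 6.03 to 6.23. Kif4 on replicate 1 was low at 6.43, against 6.61 to 6.67.

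The response to bleomycin differed between the oligonucleotides in 16 mitosis genes by limma's interaction term, lower with LNA-miR-199a-5p in each. On all arrays the term was -2.32 for Cdk1 (adjusted p = 0.0189), -2.01 for Pbk (adjusted p = 0.0355), -1.9 for Spc25 (adjusted p = 0.0115) and -1.87 for Prc1 (adjusted p = 0.0149). It was -1.73 for Kif20a, -1.71 for Cenpe, -1.68 for Ccnb2, -1.61 for Ect2, -1.56 for Aurka, -1.44 for Cdc20, -1.4 for Tpx2 and -1.33 for Plk1. The smallest were -1.28 for Spc24, -1.28 for Ube2c, -1.2 for Melk and -0.98 for Kif23, with adjusted p up to 0.0478 among all 16. Without the high-Rag1 arrays the direction was the same for all 16, and Spc25 (-1.54, adjusted p = 0.0332) and Prc1 (-1.48, adjusted p = 0.0445) passed.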

How the results depend on the processing

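Among 30 settings tried, no value changed sign past its threshold. In the order rise with LNA-control, rise with LNA-miR-199a-5p, bleomycin groups, PBS groups and interaction, the counts below are of the 37 mitosis genes called, then of all genes called. On all 16 arrays these were 35, 1, 32, 0 and 16 mitosis genes and 3651, 2786, 5188, 10 and 1462 genes. Without the high-Rag1 arrays the median rise was 1.06; 19 mitosis genes were lower between bleomycin groups and 2 in the interaction, with 2258, 2356, 3 and 525 genes in all for the rise, the bleomycin groups, the PBS groups and the interaction. With the replicate block, 8 mitosis genes passed the interaction, and 2429, 663, 3 and 947 genes in all passed the rise, the rise with LNA-miR-199a-5p, the PBS groups and the interaction. Testing only genes above the median level, which leaves 16 mitosis genes, called 16, 0 and 15 in the first 3 comparisons. Array weights called 33 mitosis genes in the interaction and 6713, 394 and 3862 genes in the rise, the PBS groups and the interaction. Fitting only the groups compared called 271 genes for LNA-miR-199a-5p and 0 for PBS. With RNA integrity as a covariate, 4 mitosis genes passed the interaction, and 1162, 2981 and 733 genes in all passed the rise with LNA-miR-199a-5p, the bleomycin groups and the interaction; a trended robust prior gave 9 in the interaction. The cause was not tested.

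These settings were chosen after seeing the data. Without the high-Rag1 arrays and with the replicate block, 14, 0, 4 and 0 mitosis genes were called in the rise, the rise with LNA-miR-199a-5p, the bleomycin groups and the interaction, with medians of 0.93, -0.67 and -0.83 for the rise, the bleomycin groups and the interaction, and 1108, 60, 1310, 0 and 239 genes in all. With bleomycin + LNA-control replicate 2 also out, 7 were lower between bleomycin groups and 1 in the interaction (median -0.87), with 1927, 1548, 3 and 444 genes in all. With replicate 3 also out, 2 rose with LNA-miR-199a-5p and 25 passed the interaction, with 2395, 2662, 4 and 911 genes in all. With replicate 5 also out, 17 rose (median 0.76), 3 were lower between bleomycin groups (median -0.38) and 2 in the interaction (median -0.54), with 1241, 908, 3 and 232 genes in all. The PBS arrays alone with the replicate block called 2 genes.

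Leaving out 1 array at a time gave 30 to 36, 1 to 2, 30 to 35, 0 and 1 to 31 mitosis genes, medians of 1.26 to 1.66, 0.07 to 0.17, -1.24 to -0.95, 0.11 to 0.25 and -1.48 to -1.09, and 2293 to 3984, 1186 to 3534, 3785 to 5640, 2 to 121 and 632 to 2215 genes in all. Among genes called on all arrays, the rise of Cenpf was called in 5 of these 16 fits, of Ttk and Mad2l1 in 10 each, of Kif2c in 12 and of Cenpa in 15.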
